A study of Mus musculus with 2 samples.

Results

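The genes described here encode the protein import machinery of mitochondria and a family of small proteins that it imports. They are the genes whose symbols start with Timm (translocases of the inner membrane), Tomm (translocases of the outer membrane) or Chchd (proteins with a coiled-coil-helix-coiled-coil-helix domain). The rule used the symbol alone and no measured value, although it was set with earlier results of these data known. The deposited counts held 32 such genes of 17774, and 31 of them were among the 15947 genes found in 3 or more cells. Tomm20l, a relative of the outer membrane receptor gene Tomm20, did not pass that filter. The counts came from single retinal cells sorted by GFP from C57BL/6 mice at P24, in 1 library from uninjected mice and 1 from mice given GSK-J4, an inhibitor of the enzymes that remove methyl groups from H3K27. All mice of both libraries carried the Pde6ccpfl1 mutation, which damages cones, and Chrnb4.eGFP, in which the Chrnb4 promoter drives GFP to mark cones for sorting. The treated mice had received 10 µM GSK-J4 by a single injection into the vitreous at P14, 10 days before collection, and the other mice had received no injection. Drug and injection, and treatment and plate, therefore cannot be told apart. The names of the treated cells hold the word adult, while the labels give P24 for both libraries, and the number of mice behind each plate is not given in the sources used here.

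Nearly all proteins of a mitochondrion are made in the cytosol and enter through the outer membrane translocase (TOM), which passes them to the TIM23 complex for the matrix, to the TIM22 complex for the inner membrane, or to small chaperones of the intermembrane space. Many Chchd proteins are held in the intermembrane space by the oxidoreductase that Chchd4 encodes, and some shape the inner membrane folds or help build the respiratory chain. Photoreceptors pack mitochondria densely into the inner segment, next to the outer segment where light is sensed.

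Upstream sequence is shown for 4 members that the results turn on. Timm13 and Tomm22 had no count in the treated library, and Chchd5 and Timmdc1 had counts on opposite sides of the uninjected plate. These 4 were chosen after their values were seen. Each sequence is the 250 bases before the RefSeq start in GRCm38.p6, at chr10:80900970-80901219 (minus strand) for Timm13, chr15:79670618-79670867 (plus strand) for Tomm22, chr2:129129450-129129699 (plus strand) for Chchd5 and chr16:38522664-38522913 (minus strand) for Timmdc1, read in the direction of the gene. Capitals mark CCGGAA, the core of sites bound by ETS-family factors such as GABP, on either strand.
Timm13: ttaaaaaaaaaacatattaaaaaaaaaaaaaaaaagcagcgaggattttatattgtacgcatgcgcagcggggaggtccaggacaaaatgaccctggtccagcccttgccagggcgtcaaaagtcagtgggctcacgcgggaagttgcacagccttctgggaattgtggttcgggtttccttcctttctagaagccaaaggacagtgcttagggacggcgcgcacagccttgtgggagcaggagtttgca
Tomm22: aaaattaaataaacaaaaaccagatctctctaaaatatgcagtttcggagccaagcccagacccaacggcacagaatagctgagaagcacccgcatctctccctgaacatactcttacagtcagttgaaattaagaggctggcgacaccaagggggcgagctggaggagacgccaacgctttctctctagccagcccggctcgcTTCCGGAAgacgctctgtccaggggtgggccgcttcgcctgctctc
Chchd5: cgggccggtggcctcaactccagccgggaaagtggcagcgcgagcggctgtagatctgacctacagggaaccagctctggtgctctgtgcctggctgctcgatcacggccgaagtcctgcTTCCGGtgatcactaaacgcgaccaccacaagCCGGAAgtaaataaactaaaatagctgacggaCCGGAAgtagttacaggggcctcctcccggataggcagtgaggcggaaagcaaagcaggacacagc
Timmdc1: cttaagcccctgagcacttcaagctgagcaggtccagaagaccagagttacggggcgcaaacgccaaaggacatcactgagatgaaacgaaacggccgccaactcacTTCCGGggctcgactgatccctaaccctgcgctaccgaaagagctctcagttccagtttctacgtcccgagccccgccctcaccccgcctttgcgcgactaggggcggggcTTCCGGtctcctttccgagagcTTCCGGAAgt
The core occurred 0 times in the Timm13 window, 2 times in that of Tomm22, where both strands read it in overlapping letters, 3 times in that of Chchd5 and 4 times in that of Timmdc1. RefSeq promoters were matched for 27 members, of which 12 held the core in these 250 bases (44.4%), against 12.2% of all 27025 promoters and 18.1% of the 11789 promoters of genes that passed the filter. The 12 were Timm8a2, Timm8b, Timm10, Timm23, Timm29, Timmdc1, Tomm22, Tomm34, Tomm70a, Chchd1, Chchd3 and Chchd5, so the letters lay before genes that were lower, higher and neither in the treated library. The NRF1 site, searched as GCGC, any base, T and GCGC, lay before Chchd4 and Tomm20 only (7.41%, against 3.86% of all and 6.72% of filtered promoters), and AAGATGGC of the YY1 site before none of the 27 (1.59% and 1.83%). None of the ETS and NRF1 matches fell in the same promoter. A match describes letters and not a bound site.

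After the filter there were 82 uninjected cells with 1113424 counts and 64 treated cells with 208578 counts. A cell held 860 to 98250 counts in the uninjected library, with a median of 8118, and 420 to 15371 in the treated library, with a median of 2336. The cell type in the labels was checked with 11 cone markers, which took 2.59% of the uninjected and 0.213% of the treated counts (per cell 0.358 to 9.81% and 0 to 6.74%). In the treated library Opn1sw, Gngt2, Cngb3, Pde6c and Guca1a had no count at all, and 50 of the 64 cells held none of the 11 cone markers, so the labelled cell type could not be checked in those cells. A count of at least 1 cone marker was found in 14 treated cells and in all 82 uninjected cells. The 9 rod markers took 0.342% and 0.0125%, and the 7 Müller glia markers 0.108% and 0.0278%. The median share of counts from the mitochondrial genome was 0.949% in uninjected and 0.0145% in treated cells. Each condition had 1 library, so no result below could be repeated without it, and no test was run, since cells are not replicates. Depth, cone marker share and mitochondrial share thus moved with the libraries, and their part in the results was not tested. Intervals are 95% intervals for counting error only, exact Poisson for summed counts and Clopper-Pearson for shares of cells.

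The first comparison asked how GSK-J4-treated cells differed from uninjected cells. The translocase and Chchd genes took 0.407% (0.396 to 0.420%) of all uninjected counts, or 4537 counts, and 0.0336% (0.0262 to 0.0424%) of all treated counts, or 70 counts. The log-fold of a gene is the natural log of its mean level plus 1 in treated minus uninjected cells, where a cell's level is its counts per 10000 of that cell. A gene is called lower or higher here when the log-fold is beyond 0.3, the size limit of the study's methods. By this rule 20 of the 31 members were lower, Tomm34 alone was higher, and 10 lay between. Over all 15947 genes 11.8% were lower and 12.6% higher. The log-folds of the members ran from -2.10 for Timm13 to 0.31 for Tomm34 with a median of -0.47, while the median over all genes was 0.03. Log-folds below 0 were found for 27 members and above 0 for 4, namely Tomm34, Chchd5, Timm29 and Timm8a2. Of the 10 members within the limit, 8 turned direction in at least 1 other setting, Chchd5, Timm29 and Timm8a2 among them. Since sparse genes cannot pass 0.3 easily, the same count was made for genes with an average level of at least 0.5 per 10000 over both libraries. All 14 members in that set were lower, against 35.4% of the set's 3235 genes, of which another 31.3% were higher. These members entered the set by their uninjected level, so their count describes them and supports nothing further. In the same set 6 of the 14 members had no treated count, as did 11.2% of the genes.

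**Figure D1:**
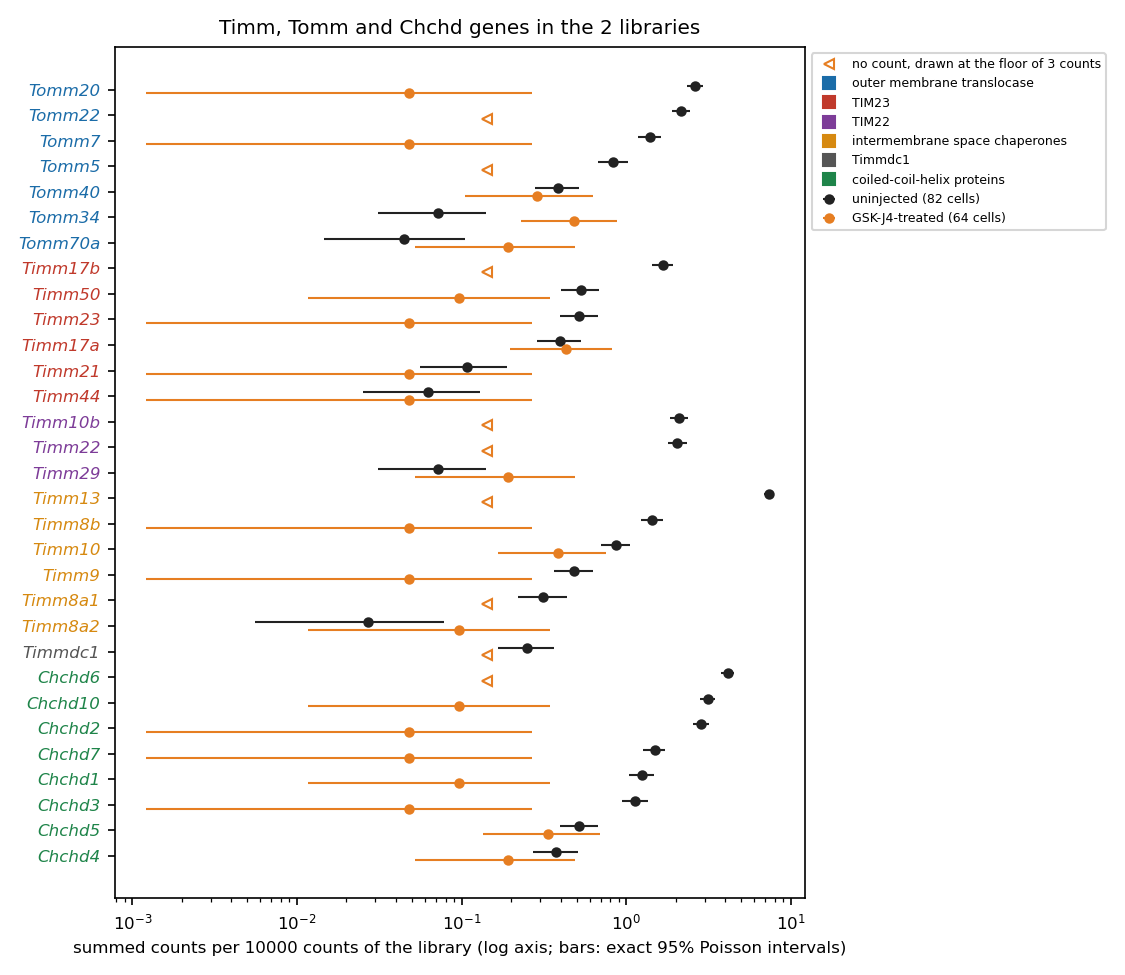
Summed counts of 31 genes per 10000 counts of their library, on a log axis, in uninjected cells (black, 82 cells) and GSK-J4-treated cells (orange, 64 cells), with exact Poisson intervals and names coloured by role. Open triangles mark the 9 genes without a treated count, drawn at the floor of 3 counts, and the orange point lies to the right of the black one for Tomm34, Tomm70a, Timm29, Timm8a2 and Timm17a.

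Among the 7 outer membrane genes in the counts, 5 were lower in the treated library, Tomm34 was higher and Tomm70a lay between. Together they had 837 uninjected and 22 treated counts. Tomm20 and Tomm22 encode receptors that recognize proteins to be imported. Tomm20 (chr8:126930667-126945844, minus strand) had a count in 66 of 82 cells (80.5%, 70.3 to 88.4%) of the uninjected library, with levels from 0 to 26.6 per 10000 and a median of 1.73. In the treated library it had 1 count, in 1 of 64 cells, against 292 (259 to 327) counts in the uninjected library, for a log-fold of -1.45. Tomm22 (chr15:79670861-79673400, plus strand) had a count in 41 of 82 cells (50%, 38.7 to 61.3%), with levels up to 41.9, and in none of the treated cells. Its 240 (211 to 272) uninjected counts against a floor of 3 counts make it at least 15-fold lower in the treated library, where such a bound leaves out the counting error of the larger count.

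Tomm7 and Tomm5 encode small subunits that surround the import pore. Tomm7 had 156 (132 to 182) counts in 39 uninjected cells and 1 count in the treated library, with a log-fold of -0.90. Tomm5 had 93 (75.1 to 114) counts in 22 uninjected cells and 0 in the treated library, so it was at least 5.81-fold lower, with a log-fold of -0.47. Of the Tomm5 counts 45 came from 1 cell, without which the bound was 3.1-fold. Such values without the cell with the most counts of a gene, here and for other members, were added after seeing the data. Neither small subunit was found in more than 1 treated cell. Tomm40, which encodes the pore itself, had 43 (31.1 to 57.9) counts in 19 uninjected cells and 6 (2.2 to 13.1) in 1 treated cell. Per library total its uninjected to treated ratio was 1.34 (0.569 to 3.86), an interval that holds 1, although its log-fold over cells was -0.40. The log-fold gives each cell equal weight, and the treated counts of Tomm40 all lay in a single cell.

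Tomm34 and Tomm70a stood apart from the other outer membrane genes. Tomm34 encodes a cytosolic co-chaperone that carries the family name and is not a subunit of the pore complex. It had 8 (3.45 to 15.8) counts in 5 uninjected cells and 10 (4.8 to 18.4) in 7 treated cells, a ratio of 0.15 (0.0514 to 0.422) in uninjected over treated shares of counts and a log-fold of 0.31. Without the uninjected cell with the most counts of it the ratio was 0.0766 (0.0175 to 0.266). It was past the limit in 5 of the 9 other settings tried, and its direction was the same in all 9. Its highest treated level, 18.6, came from a cell of 1075 counts, and the next highest was 2.75. Wells of columns 01 to 06 alone leave that cell out along with others, and there the log-fold was 0.12, within the limit. The call as higher thus leaned on a single treated cell, and the log-fold without that cell alone was not computed. Tomm34 shares its locus with Stk4 on the opposite strand, and whether the counting used strand is not stated. Tomm70a, a receptor for carrier proteins of the inner membrane, had 5 and 4 counts and a log-fold of -0.07.

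The 6 genes of the TIM23 complex, the channel to the matrix, had 366 uninjected and 14 treated counts, and 3 of them were lower. Timm17a and Timm17b encode alternative forms of the same channel subunit, and their values differed. Timm17b (chrX:7899357-7908351, plus strand) had 186 (160.2 to 215) counts in 34 uninjected cells, with levels up to 68.7, and no treated count, so it was at least 11.6-fold lower with a log-fold of -1.15. Without the Timm17b cell of 70 counts that bound was 7.31-fold. Timm17a (chr1:135295213-135313778, minus strand) had 44 (32 to 59.1) counts in 16 uninjected cells and 9 (4.12 to 17.1) in 7 treated cells. Its ratio of shares was 0.916 (0.441 to 2.13) and its log-fold -0.08. So the form with more uninjected counts had none in the treated library, while the treated share of the other lay close to its uninjected share, within a wide interval. This contrast between the forms was not tested.

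Timm50, the receptor of the TIM23 complex, and Timm23, its channel, were both lower. Timm50 had 59 (44.9 to 76.1) uninjected and 2 (0.242 to 7.22) treated counts, a log-fold of -0.53 and 19 uninjected cells with a count. Over the wells of columns 01 to 06 alone its log-fold was 0.025, and 56 of its 59 uninjected counts lay in the other columns. Timm23 had 58 (44 to 75) counts in 22 uninjected cells and 1 treated count, with a log-fold of -0.39. Timm21, which links the complex to the respiratory chain, and Timm44, which tethers the import motor, had 12 and 7 uninjected counts and 1 treated count each, too few to show a difference at this depth.

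Timm22, Timm10b and Timm29 belong to the TIM22 complex, which inserts carrier proteins into the inner membrane. The first 2 were among the members without a treated count. Timm22 (chr11:76406952-76416292, plus strand), the channel, had a count in 35 of 82 cells (42.7%, 31.8 to 54.1%) of the uninjected library at levels up to 42.4, in all 228 (199 to 259.6) counts, of which 122 came from 1 cell. It was at least 14.2-fold lower in the treated library, with a log-fold of -0.90, and without that cell the log-fold was -0.67 and the bound 6.79-fold. Timm10b had 234 (205 to 266) counts in 43 uninjected cells and was at least 14.6-fold lower, with a log-fold of -1.08. It overlaps Arfip2 on the opposite strand. Timm29 was the exception of this complex, with 8 (3.45 to 15.8) uninjected counts over 5 cells, 4 (1.09 to 10.2) treated counts over 4 cells and a log-fold of 0.17. Its ratio of 0.375 (0.10 to 1.7) in uninjected over treated shares had an interval that holds 1. Without the uninjected cell with the most counts it was 0.19 (0.0353 to 1.02).

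The small chaperones of the intermembrane space work as rings of Timm9 with Timm10 and of Timm8 with Timm13, which carry hydrophobic proteins across to the inner membrane. Timm13 (chr10:80899450-80900969, minus strand), the member with the most uninjected counts and the lowest log-fold, had 823 (768 to 881) counts and was found in 58 of 82 cells (70.7%, 59.6 to 80.3%). Its uninjected levels ran from 0 to 175 with a median of 2.35, while all 64 treated cells were at 0. It was thus at least 51.4-fold lower, with a log-fold of -2.10. Timm8b, the form of Timm8 with the most counts, had 161 (137 to 188) counts in 46 uninjected cells and 1 treated count, with a log-fold of -1.01. Both overlap a gene on the other strand, Tmprss9 and Nkapd1.

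The partners Timm9 and Timm10 differed in their treated counts. Timm9 had 54 (40.6 to 70.5) uninjected counts and 1 treated count, with a log-fold of -0.34. Timm10 had 97 (78.7 to 118) counts in 16 uninjected cells, of which 67 lay in a single cell, and 8 (3.45 to 15.8) in 3 treated cells. The Timm10 log-fold of -0.09 lay within the limit, and its ratio of shares was 2.27 (1.11 to 5.41). Without the cell of 67 counts that ratio was 0.727 (0.326 to 1.83), so its direction rested on 1 cell. Timm8a1, whose human counterpart is mutated in a deafness-dystonia syndrome, had 35 (24.4 to 48.7) uninjected counts in 8 cells and none in the treated library, with a log-fold of -0.09. Timm8a2, with 3 and 2 counts, was too sparse to compare, at a log-fold of 0.06. Timmdc1, which helps assemble complex I and shares sequence with the channel proteins, had 28 (18.6 to 40.5) uninjected counts in 13 cells and none in the treated library, with a log-fold of -0.32.

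The 8 Chchd genes had 1663 uninjected and 18 treated counts, and 6 of them were lower, with a median log-fold of -1.02. Chchd3 and Chchd6 encode subunits of MICOS, the complex that holds the necks of the inner membrane folds. Chchd6 (chr6:89383146-89595652, minus strand) had 462 (421 to 506) counts in 50 of 82 cells (61%, 49.6 to 71.6%) and no treated count, so it was at least 28.8-fold lower, with a log-fold of -1.48. Chchd3 had 127 (106 to 151) counts in 34 uninjected cells and 1 treated count, with a log-fold of -0.78. Both MICOS genes were past the limit in all 9 other settings.

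Chchd2 and Chchd10 encode related proteins whose human counterparts are mutated in neurodegenerative disease. Chchd10 (chr10:75933130-75937747, plus strand) had a count in 68 of 82 cells (82.9%, 73 to 90.3%) of the uninjected library, with levels from 0 to 216 and a median of 1.92. In the treated library it had 2 counts in 2 cells, and its log-fold was -1.89. Chchd2 (chr5:129881156-129887470, minus strand) had a count in 69 of 82 cells (84.1%, 74.4 to 91.3%), with levels up to 40.9 and a median of 1.82, and 1 treated count, for a log-fold of -1.61. These were the 2 members found in the largest shares of uninjected cells, and both were nearly absent from treated cells. Their ratios of uninjected over treated shares were 32.8 (9.01 to 272) for Chchd10 and 59.8 (10.6 to 2368) for Chchd2. Chchd2 has a pseudogene copy and overlaps Phkg1 on the same strand, and Chchd10 overlaps Mmp11 on the opposite strand, so reads of either could be split or shared.

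Chchd1, a protein of the mitochondrial ribosome, had 139 (117 to 164) uninjected and 2 (0.242 to 7.22) treated counts, with a log-fold of -0.996. Chchd7, a small protein of the intermembrane space, had 166 (142 to 193) uninjected counts and 1 treated count, with a log-fold of -1.05. The other 2 genes of the family were not lower. Chchd4, the oxidoreductase that folds imported proteins of the intermembrane space, had 42 (30.3 to 56.8) counts over 16 uninjected and 4 (1.09 to 10.2) in 4 treated cells, with a log-fold of -0.11 and a ratio of 1.97 (0.714 to 7.55). Chchd5 (chr2:129129700-129134134, plus strand) had 58 (44 to 75) counts over 12 uninjected and 7 (2.81 to 14.4) in 5 treated cells. Its log-fold was 0.24, while its ratio of uninjected over treated shares was 1.55 (0.707 to 4.03), so the direction depended on whether cells or counts were given equal weight. Without the cell with the most counts the ratio was 0.632 (0.262 to 1.74).

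Detection per cell followed the same division between the libraries. Each of the 82 uninjected cells had a count of at least 1 member, with 1 to 25 members per cell and a median of 10.5. In the treated library 30 of 64 cells (46.9%, 34.3 to 59.8%) had a count of any member, and no cell had more than 6. The summed member level ran from 6.86 to 287 per 10000 in uninjected cells, with a median of 33.5, and from 0 to 22.0 in treated cells, with a median of 0. The ranges overlapped between 6.86 and 22.0. Because uninjected cells were deeper, each cell was also thinned to 867 counts, which left out 1 uninjected and 14 treated cells. A member was then found in 80 of 81 uninjected cells (98.8%) and in 12 of 50 treated cells (24%). After thinning, Timm13 was left in 23 uninjected cells, Chchd2 in 21 and Tomm20 and Chchd10 in 18 each, and all 4 in no treated cell. No cell type of the retina is known to lack mitochondrial import, so these data hold no cells in which the background of free RNA for these genes could be read.

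**Figure D2:**
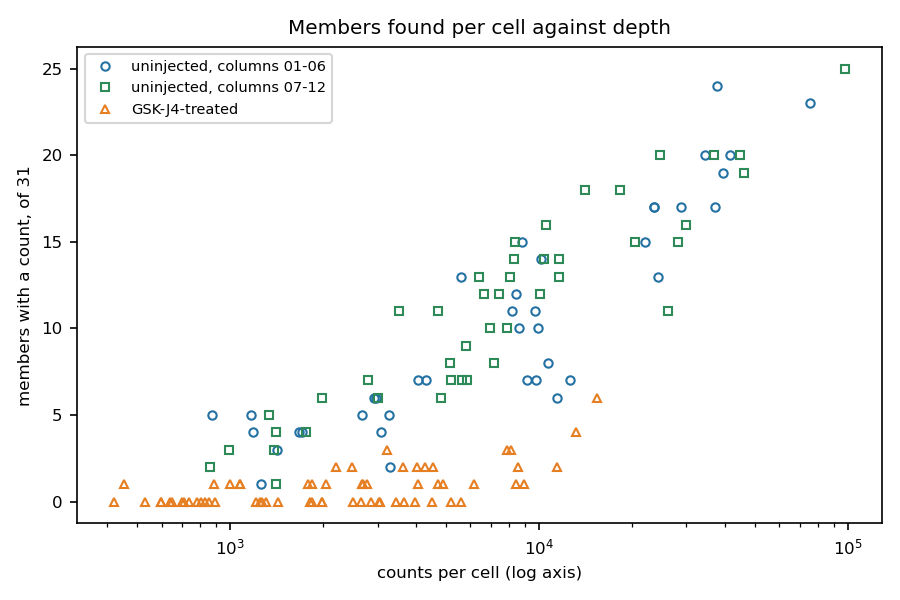
Number of members with a count in each cell (of 31) against the counts of that cell on a log axis, for uninjected cells of well columns 01 to 06 (circles) and 07 to 12 (squares) and for GSK-J4-treated cells (triangles). Uninjected cells reach 25 members at 98250 counts, and the treated cells, which end at 15371 counts, reach 6.

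The treated cells that held a member were also the deeper ones. The 30 with a member had a median of 3822 counts and the other 34 a median of 1285. Of the 30, 10 also had a count of a cone marker, as did 4 of the other 34. Treated counts were spread thinly, with 10 for Tomm34, 9 for Timm17a, 8 for Timm10, 7 for Chchd5 and 6 for Tomm40 as the only genes above 4. Their uninjected counts were 8, 44, 97, 58 and 43, so the members with the most treated counts were not those with the most uninjected counts.

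The second comparison set wells of columns 01 to 06 against those of columns 07 to 12 within the uninjected plate. The 39 and 43 cells of the 2 sides had 546722 and 566702 counts, with medians of 8819 and 7163 per cell. Cone markers took 2.48% and 2.69% of the counts, rod markers 0.424% and 0.263%, Müller glia markers 0.134% and 0.0840%, and the median mitochondrial share was 1.13% and 0.747%. All 11 cone markers had counts on both sides, while the rod factor Nrl had none in columns 01 to 06. The part of these marker differences in the results was not tested. Wells are not replicates of a condition and nothing in the sources used here says what the sides differ in, so the values describe 1 plate.

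The import genes as a whole took nearly the same share of the counts on both sides, 0.416% (0.399 to 0.433%) in columns 01 to 06 and 0.399% (0.383 to 0.416%) in columns 07 to 12. Single members were unequal, and in opposite directions. By the limit of 0.3, 9 members were higher in columns 01 to 06 and 13 in columns 07 to 12, and 9 lay between. Over all genes 9.0% and 8.42% were higher on the respective sides. Among genes with an average level of at least 0.5 over the 2 sides, 4 of 18 members were higher in columns 01 to 06 and 11 of 18 in columns 07 to 12, against 29.4% and 27.0% of the 3086 genes in that set. Members could enter this set through the side where they were high, so these counts describe them and support nothing further. The log-fold of columns 01 to 06 over 07 to 12 ran from -0.97 for Chchd1 to 0.89 for Chchd10, with a median of -0.12. The count leaned on single cells. Without the cell with the highest level of each member, a setting chosen after seeing the data, 3 members were higher in columns 01 to 06 and 7 in columns 07 to 12. With counts summed over each side in place of the mean over cells, 9 and 8 were higher.

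**Figure D3:**
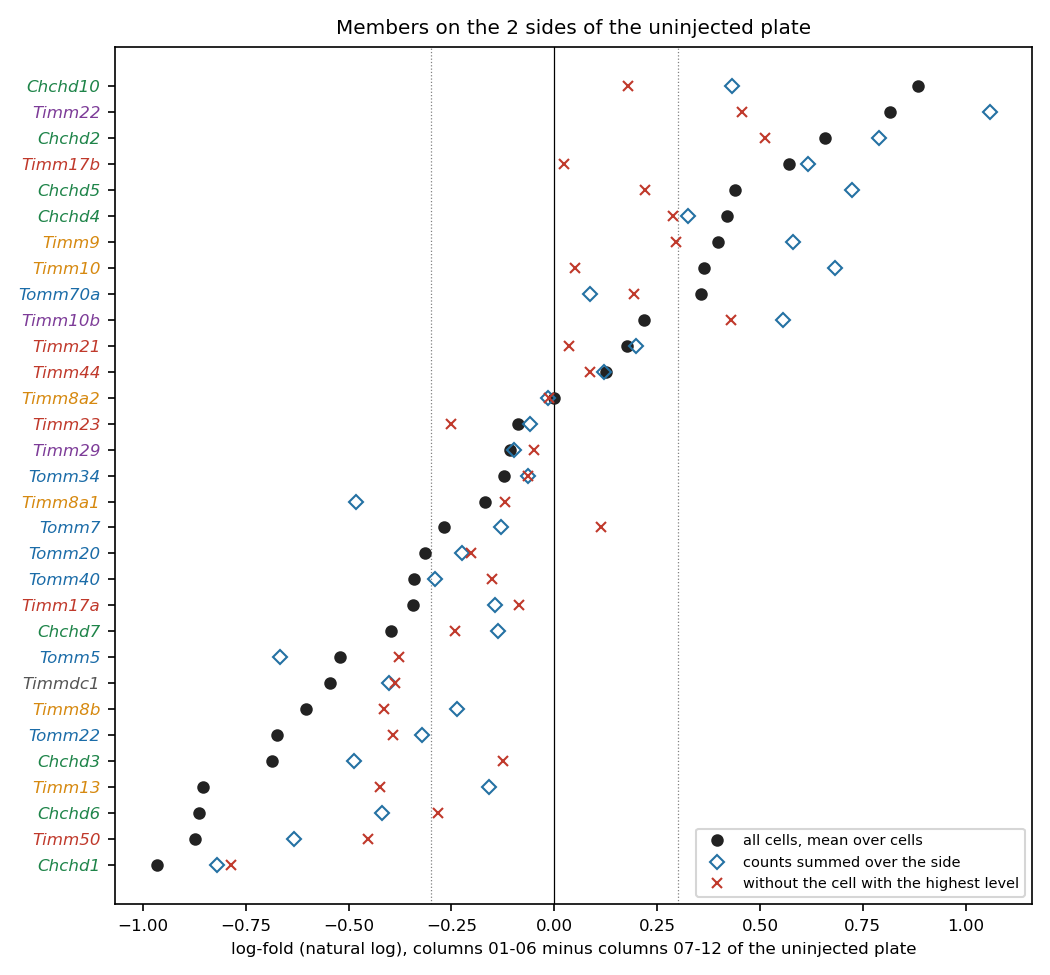
Log-fold of columns 01 to 06 minus columns 07 to 12 of the uninjected plate for 31 genes, as the mean over all cells (filled circles), from counts summed over each side (open diamonds) and without the cell with the highest level of the gene (crosses). Dotted lines mark the limit of 0.3, which Timm22 and Chchd2 on the right, and Chchd1, Timm50, Tomm22, Tomm5 and Timmdc1 on the left, pass by all 3 ways of computing.

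Timm22 and, on the other side, Chchd1, Timm50, Tomm22 and Tomm5 were past the limit in all 10 other settings. Timm22, the carrier channel, had 195 (169 to 224) counts in columns 01 to 06 and 33 (22.7 to 46.3) in columns 07 to 12. It was found in 23 of 39 cells (59%, 42.1 to 74.4%) on the first side and 12 of 43 cells (27.9%, 15.3 to 43.7%) on the last, for a log-fold of 0.82 and a ratio of summed shares of 6.13 (4.22 to 9.15). In columns 01 to 06, 122 of the 195 counts came from 1 cell, and the ratio without it was 2.42 (1.58 to 3.77). By well column its mean level was 0.565 to 6.69, median 1.72 on the first side and 0 to 1.29, median 0.381 on the last, so the columns overlapped. The related TIM22 gene Timm10b also had more counts on the first side, 162 against 72, in 28 of 39 and 15 of 43 cells, although its log-fold of 0.22 lay within the limit.

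Chchd1, the ribosomal member, had the lowest log-fold between the sides, -0.97. It had 20 (12.2 to 30.9) counts in columns 01 to 06 and 119 (98.6 to 142) in columns 07 to 12, and was found in 10 of 39 cells (25.6%, 13 to 42.1%) and 32 of 43 cells (74.4%, 58.8 to 86.5%). Levels ran from 0 to 11.4 with a median of 0 on the first side and from 0 to 35.5 with a median of 1.35 on the last. The ratio of summed shares, last side over first, was 5.74 (3.56 to 9.74). After thinning it was left in 2 and 9 cells. Chchd1 overlaps 6230400D17Rik on the opposite strand. Timm50 had 3 (0.619 to 8.77) and 56 (42.3 to 72.7) counts, in 2 of 39 and 17 of 43 cells, with a log-fold of -0.87. Its well columns did not overlap, at 0 to 0.048, median 0 on the first side and 0.20 to 4.92, median 0.378 on the last.

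Both outer membrane genes of this group were higher in columns 07 to 12. Tomm22 had 90 (72.4 to 111) and 150 (127 to 176) counts in 17 of 39 and 24 of 43 cells, with a log-fold of -0.67 and a ratio, last side over first, of 1.61 (1.23 to 2.11). Without the cell with the most counts, which lay on the first side, that ratio was 2.77 (1.98 to 3.96). Tomm5 had 13 (6.92 to 22.2) and 80 (63.4 to 99.6) counts in 4 and 18 cells, with a log-fold of -0.52 and a ratio of 5.94 (3.28 to 11.6). Of the 80 counts on the last side 45 came from 1 cell, and the ratio without it was 2.78 (1.43 to 5.72). Of the 7 outer membrane genes 4 were higher in columns 07 to 12, with Tomm20 at -0.31 and Tomm40 at -0.34 as the others. Tomm70a alone was higher on the first side, from 5 counts in all. Together the outer membrane genes took 0.0565% (0.0504 to 0.0632%) of the counts in columns 01 to 06 and 0.0932% (0.0854 to 0.101%) in columns 07 to 12, whereas the 3 TIM22 genes took 0.0655% (0.0589 to 0.0726%) and 0.0198% (0.0163 to 0.0238%).

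By the mean over cells the 8 Chchd genes lay beyond the limit, 4 on each side. Over all genes, many of them sparse, 9.0% and 8.42% lay beyond it on the respective sides. Among genes with an average level of at least 0.5, 2 and 4 of 6 Chchd genes did, against 29.4% and 27.0%. A gene could enter that set through its high side, so these counts are descriptive. Without the highest cell of each gene only Chchd2 and Chchd1 lay beyond the limit, and with summed counts Chchd7 fell within it. Chchd10, Chchd2, Chchd5 and Chchd4 were higher in columns 01 to 06, and Chchd1, Chchd6, Chchd3 and Chchd7 in columns 07 to 12. Chchd2 had 238 (209 to 270.2) and 81 (64.3 to 101) counts, with medians of 3.37 and 0.962 per 10000 and a log-fold of 0.66. After thinning it was left in 16 of 39 and 5 of 42 cells. Its ratio of summed shares, first side over last, was 3.05 (2.36 to 3.97). Chchd10 had 221 (193 to 252) and 129 (108 to 153) counts, with medians of 3.03 and 1.27. Its log-fold of 0.89 drew on 1 cell at 216 per 10000, and was 0.18 without it.

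The 2 MICOS genes were both higher on the last side. Chchd6 had 168 and 294 counts and a log-fold of -0.86, which was -0.28 without its highest cell. Chchd3 had 34 and 93 counts and a log-fold of -0.69, which was -0.12 without its highest cell. In both, then, 1 cell carried the value past the limit. Chchd4 had 33 and 9 counts, in 12 and 4 cells, with a log-fold of 0.42. Chchd7 had 72 and 94 counts and a log-fold of -0.40, with a ratio of summed shares of 1.26 (0.917 to 1.74), last side over first, whose interval holds 1.

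Some members were found on 1 side only. Of the 25 members with at least 20 uninjected counts, 3 had no count on 1 side, against 4.71% of the 6090 genes with as many counts. Chchd5 had 58 (44 to 75) counts in 12 of 39 cells (30.8%, 17 to 47.6%) of columns 01 to 06, and 0 in 43 cells of columns 07 to 12, so it was at least 20.04-fold higher on the first side. Of its counts 35 came from 1 cell, without which the bound was 8.39-fold, and the treated plate held 2 counts of it in columns 01 to 06 and 5 in columns 07 to 12. Timmdc1 had no count in 39 cells of columns 01 to 06 and 28 (18.6 to 40.5) in 13 of 43 cells (30.2%, 17.2 to 46.1%) of columns 07 to 12, at least 9.0-fold higher there. Without its cell of 13 counts the bound was 4.92-fold. Timm8a1 had no count in columns 01 to 06 and 35 (24.4 to 48.7) in 8 cells of columns 07 to 12, of which 25 came from 1 cell. The well columns of Chchd5, Timmdc1 and Timm50 did not overlap between the sides, 3 of the 25 members, against 6.5% of those 6090 genes.

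**Figure D4:**
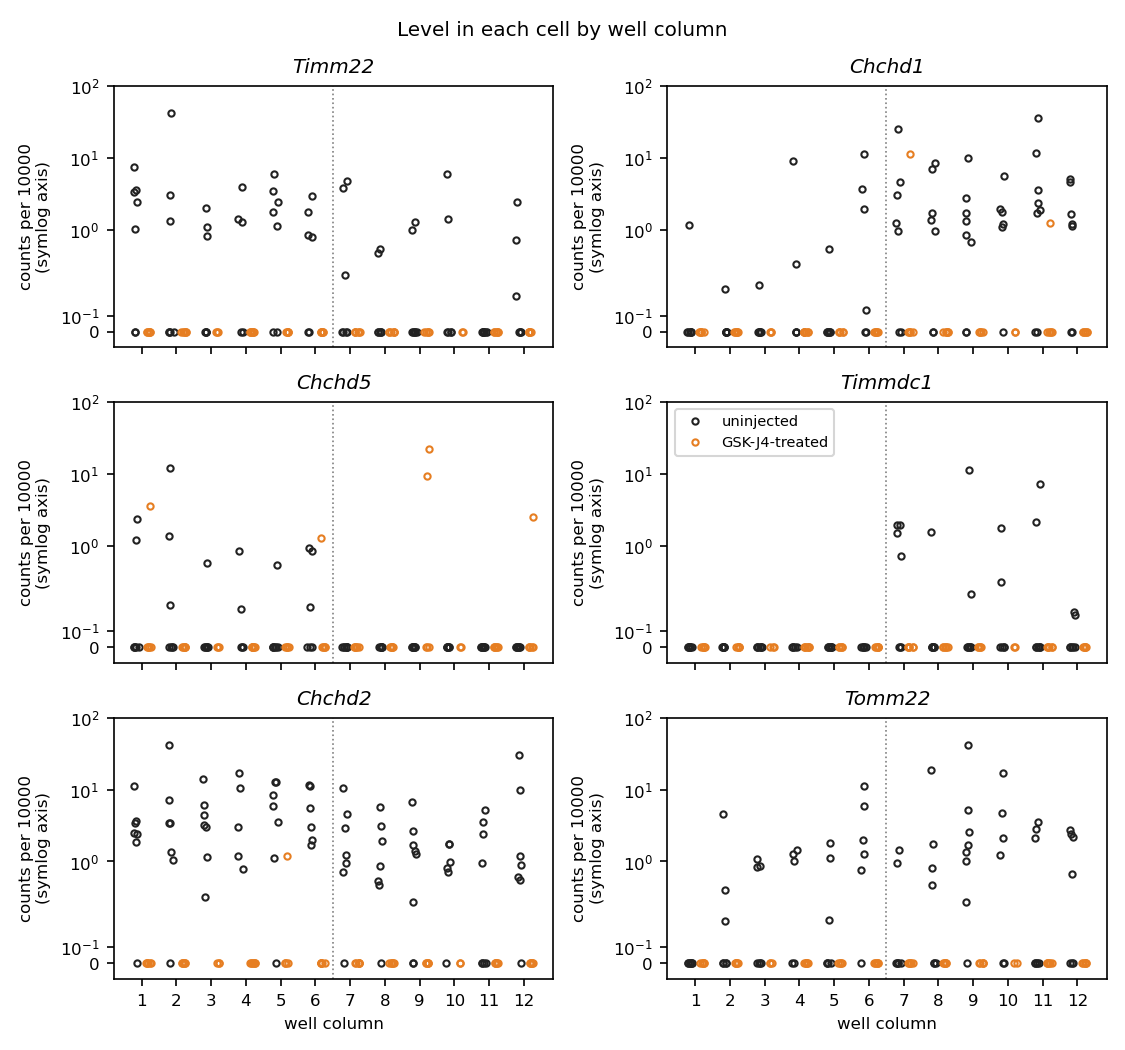
Level of 6 genes in each cell, in counts per 10000 of the cell on an axis that is linear near 0 and logarithmic above, by well column 1 to 12, for uninjected (black) and GSK-J4-treated cells (orange). The dotted line parts columns 01 to 06 from 07 to 12, with uninjected counts of Chchd5 to its left only and of Timmdc1 to its right only, while Timm22, Chchd1, Chchd2 and Tomm22 have counts on both sides.

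The chaperones of the intermembrane space were split between the sides as well. Timm9 and Timm10, which form 1 ring, both had more counts in columns 01 to 06, with 50 and 4 for Timm9 and 82 and 15 for Timm10. Their log-folds were 0.40 and 0.36, but that of Timm9 was -0.18 after thinning and that of Timm10 was 0.050 without its highest cell. Timm13 and Timm8b, of the other ring, were higher in columns 07 to 12. Timm13 had 367 (330.4 to 407) and 456 (415 to 499.8) counts, with medians of 2.06 and 2.85 per 10000 and a log-fold of -0.86. Its ratio of summed shares, last side over first, was only 1.2 (1.04 to 1.38), and its levels reached 175 in a cell of the last side. Without the cell with the most counts, 177 of the 456 on the last side, the ratio was 0.747 (0.637 to 0.875), so by summed shares the direction turned. Timm8b had 63 (48.4 to 80.6) and 98 (79.6 to 119) counts in 17 and 29 cells, with a log-fold of -0.60 and a ratio of 1.5 (1.08 to 2.09).

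In the TIM23 complex Timm17b was higher in columns 01 to 06 and Timm50 and Timm17a in columns 07 to 12. The counts of Timm17b were 136 (114 to 161) and 50 (37.1 to 65.9). Its log-fold was 0.57 over all cells and 0.024 without its highest cell at 68.7 per 10000. Timm17a had 16 and 28 counts, in 8 cells of each side, and a log-fold of -0.34 that was 0.037 in well rows E to H alone. Timm23 had 26 and 32 counts and a log-fold of -0.09, within the limit. Timm21 and Timm44 had 12 and 7 counts in columns 01 to 06 and none in columns 07 to 12, so against the floor of 3 counts they were at least 4.15-fold and 2.42-fold higher on the first side. Without their highest cells the bounds were 2.11-fold and 1.48-fold. Of the members not yet named between the sides, Tomm7 had a log-fold of -0.27, Tomm34 of -0.12 and Timm29 of -0.11, and Timm8a2 had 1 and 2 counts.

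Other genes of mitochondrial import were taken from a list of 26 that carry other names, of which 25 were in the filtered counts. In the treated library 10 of the 25 were lower, Agk and Dnajc15 were higher and 13 lay between, with a median log-fold of -0.13. Over all genes 11.8% were lower and 12.6% higher. Among genes with an average level of at least 0.5, 8 of 11 were lower and 1 higher, against 35.4% and 31.3%. A gene could enter that set through the library where it was high, and 3 of the 11 had no treated count. These counts thus describe the genes and support nothing further. Hspe1, a matrix co-chaperonin, had the most uninjected counts of the list, 498 (455 to 544), and none in the treated library. Pam16, a part of the import motor, had 313 (279 to 349.7) and 0 counts. Mtx2, an outer membrane sorting protein, had the most treated counts, 30 (20.2 to 42.8) against 106 (86.8 to 128) uninjected, with a log-fold of 0.04. Of its treated counts 14 came from 1 cell, and its treated levels reached 70.7 against a mean of 1.6. The Mtx2 log-fold thus leaned on a single cell, and its value without that cell was not computed. Its ratio of uninjected over treated shares was 0.662 (0.438 to 1.03), an interval that holds 1. Agk, a lipid kinase that is also a TIM22 subunit, had 4 uninjected and 13 (6.92 to 22.2) treated counts and a log-fold of 0.52. Dnajc15, a motor co-chaperone, had 10 and 7 counts and a log-fold of 0.38. Of its treated counts 5 came from a cell at a level of 60.4, and 5 of its uninjected counts from a cell at 29.2. The Dnajc15 log-fold thus leaned on single cells, and its value without them was not computed. Samm50, counted as lower at a log-fold of -0.32, had 31 uninjected and 14 treated counts. Its ratio of uninjected over treated shares was 0.415 (0.214 to 0.844), so by shares of counts it was higher in the treated library. No other gene of the 10 turned in this way. The highest uninjected level of Samm50 was 64.3, against a mean of 1.02, and its log-fold without that cell was not computed. Of the TIM22 genes, Agk and Timm29 had log-folds above 0, while Timm22 and Timm10b had no treated count. The log-fold of Timm29 lay within the limit and was -0.03 in wells of columns 07 to 12 alone. Between the sides of the uninjected plate 9 of the 25 were higher in columns 01 to 06 and 1, Hspe1, was higher in columns 07 to 12, with 87 and 411 counts and a log-fold of -0.85. Over all genes the shares were 9.0% and 8.42%. Among genes with an average level of at least 0.5 over the 2 sides, 6 and 1 of 11 were higher on the first and last side, against 29.4% and 27.0%. Here too a gene could enter the set through the side where it was high, so the counts are descriptive. Several of the 9 genes higher in columns 01 to 06 leaned on single cells. There, 33 of 38 Mtx1 counts came from 1 cell. Levels reached 127 for Pam16, 64.3 for Samm50 and 212 for Minos1, against means of 5.48, 1.82 and 7.78 on that side. Pam16 had 152 and 161 counts on the 2 sides. Its ratio of summed shares, first side over last, was 0.979 (0.779 to 1.23). The others of the 9 had the larger share in columns 01 to 06. Log-folds without these cells were not computed.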

How the data were processed

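RNA of GFP-sorted single cells was sequenced in 1 library per condition on 1 plate each. The authors sorted the reads by plate, cell and primer barcodes, mapped them in the CLC Genomics Workbench v.20 to a genome named GRCh38, a human build number, removed PCR duplicates by UMI and position, counted genes with featureCounts and summed 3' and 5' counts. They deposited raw whole-number counts. Whether strand was used is not stated, and 20 of the 32 members overlap another gene in GENCODE vM21 (GRCm38), the source of gene coordinates. The study's batch correction was left out.

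As in the study's methods, genes found in fewer than 3 cells were removed, and so were cells under 200 genes or over 5% mitochondrial counts, which left 146 of 151 cells. Levels are counts per 10000 of a cell. The log-fold is the difference in ln(mean level + 1), the form of Seurat v.2, and 0.3 is the limit. Counts were not divided by gene length, so genes are compared between groups, not with each other. Folds given as at least use a floor of 3 counts over the group. They leave out the counting error of the larger count and are not 95% bounds. Thinning drew 867 counts per cell, the 10th percentile. Intervals were computed at 95% in Python 3.11.15 with pandas 2.3.3, numpy 2.4.6 and scipy 1.17.1, and the calculation was tested on simulated data. With 1 library per condition, no P-value was computed. Wells were sorted with 1 cell each, no doublet caller was run, and 54 well positions were used on both plates, with no identical cells.

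The members, the other import and twin-cysteine lists and the settings were chosen with earlier results of these data known. Full values are given for members with at least 100 counts, a log-fold above 0 or a mention in the study. The others are given beside the members of their complex, outside this rule.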

Additional observations from a re-analysis of the deposited data

How the results depend on the processing

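No paired analysis was possible because each condition had 1 library and the comparisons come from no test. The number of members lower in treated cells stayed between 16 and 24 in the 9 other settings, against 20, and 14 of the 20 were past the limit in all 9. The number higher in treated cells, 1, was 4 with a pseudocount of 0.1, 0 with median-ratio size factors or at least 500 genes per cell, and 2 with thinned cells, with wells of columns 07 to 12 alone or without the highest uninjected cell of each member. The number higher in columns 01 to 06, 9, was 5 with thinned cells, 4 in well rows E to H and 3 without the highest cells. The number higher in columns 07 to 12, 13, was 8 with summed counts and 7 without the highest cells. The median treated log-fold of -0.47 was -1.88 with a pseudocount of 0.1 and -0.69 with thinned cells, and the median between sides of -0.12 was -0.42 with a pseudocount of 0.1. Among members beyond the limit, the direction turned for Timm50 in treated cells (0.025, wells of columns 01 to 06), and between sides for Timm17a (0.037, rows E to H) and Timm9 (-0.18, thinned cells). Of the members within the limit, 8 of 10 turned in at least 1 setting in treated cells (Chchd4, Chchd5, Timm10, Timm17a, Timm21, Timm29, Timm8a2 and Tomm70a) and 4 of 9 between sides (Timm10b, Timm23, Timm8a2 and Tomm7). The cause was not tested. Of 279 single log-folds of treated cells in these settings 177 moved by less than their counting interval, as did 210 of 310 between sides. With 208578 treated counts, a member without a treated count is limited to 3 counts over that library, and intervals cover neither animals nor plates.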

Other observations

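Proteins of the intermembrane space that carry the twin-cysteine fold under other names were counted from a list of 14, of which 9 were in the filtered counts. In GSK-J4-treated cells the count was 6 of 9 lower by over 0.3 log-fold and 0 higher, against 11.8% lower and 12.6% higher over all genes. Among genes with an average level of at least 0.5, 5 of 6 were lower, against 35.4%. A gene could enter that set through its uninjected level alone, so this count is descriptive. Cox6b1, a subunit of cytochrome c oxidase, had 1013 (952 to 1077) counts in uninjected cells and none in treated cells, with a log-fold of -2.31. Uqcrh, the hinge protein of complex III, had 926 (867 to 988) and 69 (53.7 to 87.3) counts, the latter in 25 of 64 treated cells, about as many counts as the 70 of all translocase and Chchd genes together. The oxidase assembly genes Coa5 and Cox17 had log-folds of 0.25 and 0.13, both within the limit of 0.3. Coa5 had 41 uninjected and 27 treated counts, the latter in 10 cells, with 16 of the 27 in 1 cell. Its ratio of uninjected over treated shares was 0.284 (0.171 to 0.481), so by shares of counts it was higher in the treated library. Cox17 had 38 and 5 counts, the latter in 3 cells. By shares of counts its direction was the other way, with a ratio of uninjected over treated of 1.42 (0.56 to 4.63).

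On the uninjected plate Ndufa8, Cox6b1 and Coa5 were higher in columns 01 to 06, with log-folds of 0.85, 0.83 and 0.61. Ndufb7 and Cox19 were higher in columns 07 to 12, at -1.34 and -0.94. Over all genes 9.0% and 8.42% were higher on the respective sides. Among genes with an average level of at least 0.5 over the 2 sides, 2 of 6 were higher on each side, against 29.4% and 27.0%. A gene could enter that set through the side where it was high, so these counts are descriptive. Ndufa8 had 61 and 2 counts on the 2 sides and Ndufb7, another subunit of complex I, 34 and 251. Of the 251 Ndufb7 counts 97 came from 1 cell, and the gene was found in 14 of 39 and 34 of 43 cells. Coa5 had 39 and 2 counts, and 20 of the 39 came from 1 cell, so its call leaned on that cell. Log-folds without these cells were not computed.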
